A study of Mus musculus with 6 samples.

Results

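Expression of 10 genes of branched-chain amino acid (BCAA) catabolism was followed in the inguinal white adipose tissue (IWAT) of mice with a nonsense variant of *Ebf2*. They are *Bcat1*, *Bcat2*, *Bckdha*, *Bckdhb*, *Dbt*, *Bckdk*, *Ppm1k*, *Ivd*, *Mccc1*, and *Hibadh*, chosen by gene symbol from the deposited table of expected counts, that is, estimated numbers of sequenced fragments per gene. They are 10 of the 55491 genes listed and of the 32664 genes with a count in at least 1 library. Bulk RNA-seq was done on IWAT of 4-week-old male C57BL/6J mice fed a regular chow diet, with 3 *Ebf2+/+* (wild-type) mice and 3 mice heterozygous for a CRISPR/Cas9 knock-in of the p.E165X stop codon (*Ebf2E165X/+*), and 1 library per mouse. The variant was introduced in zygotes of B6SJLF1 hybrid mice and passed on by founders bred to C57BL/6J, so that it is not limited to adipocytes. How many crosses to C57BL/6J preceded these mice is not stated in the study. The *Ebf2+/+* mice carry no engineered allele, and no treatment is named for either genotype. Libraries held 106820505 to 135039488 counts in all. All 10 genes had a count in all 6 libraries, the lowest being 813 for *Bcat1*, so that the counting error of these genes is small.

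EBF2 is a transcription factor of the early B cell factor family that takes part in the identity of brown and beige adipocytes. Leucine, isoleucine, and valine are broken down in mitochondria, and adipose tissue is one of the sites where this takes place. An aminotransferase first converts them to branched-chain keto acids. The branched-chain keto acid dehydrogenase (BCKDH) complex then commits these to oxidation, and it is switched off by a kinase and on by a phosphatase. Separate enzymes of each amino acid carry the products on to acetyl-CoA, acetoacetate, or propionyl-CoA, which can enter the citric acid cycle or lipid synthesis.

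*Ebf2* itself was at 38.3, 41.3, and 37.2 CPM in the *Ebf2+/+* mice and at 22.8, 22.9, and 21.1 CPM in the *Ebf2E165X/+* mice, where CPM is the count scaled to the TMM-normalized library size. The genotypes did not overlap, and the log2 fold change was −0.81 (SE 0.0762, adjusted *P* = 0.0596, edgeR quasi-likelihood test), or −0.77 (adjusted *P* = 0.0423, edgeR) without the third *Ebf2E165X/+* mouse described next. The 7 adipocyte markers, of which *Fabp4* was the most abundant, took 1.199%, 1.31%, and 1.07% of the counts in the *Ebf2+/+* mice, against 1.19%, 1.01%, and 0.696% in the *Ebf2E165X/+* mice, so that the tissue label was met in all libraries. One library stood apart. The third *Ebf2E165X/+* mouse had 3.62% of its counts in 8 skeletal muscle markers, of which *Acta1* and *Myh4* were the most abundant, against 0.0699% to 0.654% in the other 5 mice, and the lowest share of adipocyte markers. The log2 fold changes of the catabolism genes, and the main counts that it moves, are therefore also given without it.

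RefSeq promoters of GRCm38.p6 were matched to 9 of the 10 genes, in 12 windows of 300 bases, each with 250 bases before and 50 after a transcription start. *Dbt* had no entry. The letters CCCNNGGG, which are the core recognised by EBF proteins, were found on either strand in 1 of the 12 windows, that of *Bcat2*, beginning 125 bases before the start, and in 13.67% of all 32851 windows. The element AAGGTCA of the estrogen-related receptors, regulators of mitochondrial genes, was found on either strand in 0 of the 12 and in 4.718% of all windows. A match is a description of letters only. The 250 bases before the start are shown for 1 gene of each stage of the pathway whose window lies wholly before the annotated gene, with the core in capitals. They are the aminotransferase *Bcat2* (chr7:45569903-45570152, plus strand, 50.4% GC), the BCKDH subunit *Bckdhb* (chr9:83924887-83925136, plus strand, 63.2% GC), and the leucine enzyme *Mccc1* (chr3:36000679-36000928, minus strand, 48.4% GC), in GRCm38, 5′ to 3′.
Bcat2: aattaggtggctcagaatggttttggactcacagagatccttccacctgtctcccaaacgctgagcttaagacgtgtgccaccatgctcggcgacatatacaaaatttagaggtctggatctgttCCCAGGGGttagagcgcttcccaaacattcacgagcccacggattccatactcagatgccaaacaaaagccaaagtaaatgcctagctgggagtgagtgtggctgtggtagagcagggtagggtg
Bckdhb: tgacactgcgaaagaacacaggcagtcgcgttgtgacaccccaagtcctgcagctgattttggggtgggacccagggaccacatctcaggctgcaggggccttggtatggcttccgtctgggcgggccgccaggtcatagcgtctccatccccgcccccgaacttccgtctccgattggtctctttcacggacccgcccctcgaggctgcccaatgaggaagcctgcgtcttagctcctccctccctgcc
Mccc1: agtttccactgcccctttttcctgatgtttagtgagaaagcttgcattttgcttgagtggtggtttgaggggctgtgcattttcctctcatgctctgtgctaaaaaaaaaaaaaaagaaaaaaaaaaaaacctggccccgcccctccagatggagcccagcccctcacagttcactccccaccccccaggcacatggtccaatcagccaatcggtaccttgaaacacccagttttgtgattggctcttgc

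The first step separated the paralogous aminotransferases. *Bcat2* encodes the mitochondrial enzyme, which is the main form in most peripheral tissues. It was at 134.8, 133.9, and 123.3 CPM in the *Ebf2+/+* mice and at 113.3, 121.1, and 90.4 CPM in the *Ebf2E165X/+* mice. Every *Ebf2E165X/+* mouse lay below every *Ebf2+/+* mouse, and the third was lowest. This gave a log2 fold change of −0.27 (SE 0.117, 95% interval −0.54 to 0.0016, adjusted *P* = 0.783 over all genes by edgeR), and it was −0.16 without the third *Ebf2E165X/+* mouse. *Bcat1* encodes the cytosolic enzyme. The *Ebf2+/+* mice had 11.6, 7.71, and 9.54 CPM, against 10.02, 12.7, and 12.6 CPM in the *Ebf2E165X/+* mice. The genotypes overlapped, with a log2 fold change of 0.29 (SE 0.173, 95% interval −0.11 to 0.70, adjusted *P* = 0.783, edgeR), and *Bcat1* was the only 1 of the 10 genes with a higher mean in the *Ebf2E165X/+* mice. Its log2 fold change was 0.15 without the second and 0.43 without the first *Ebf2+/+* mouse, and 0.24 without the third *Ebf2E165X/+* mouse.

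The ratio of *Bcat1* to *Bcat2* within a library asks whether the balance of both forms differed, without regard to library size. The *Ebf2+/+* mice had ratios of 0.0857, 0.0576, and 0.0774, against 0.0884, 0.105, and 0.140 in the *Ebf2E165X/+* mice. Every *Ebf2E165X/+* mouse had a higher ratio than every *Ebf2+/+* mouse, although the first *Ebf2E165X/+* and the first *Ebf2+/+* mouse were close. The mean log2 ratio was −3.78 ± 0.298 (SD, n = 3) against −3.20 ± 0.335 (SD, n = 3), a difference of 0.59 (two-sided exact permutation test, *P* = 0.1, which is the smallest *P* that 3 mice against 3 can give).

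The BCKDH complex carries the committed step, and its 3 own subunits were lower in all *Ebf2E165X/+* mice than in all *Ebf2+/+* mice. *Bckdha* encodes the E1α subunit of the decarboxylase, on which the kinase and the phosphatase act. The *Ebf2+/+* mice had 146.4, 141.7, and 130.1 CPM, against 105.6, 104.2, and 92.5 CPM in the *Ebf2E165X/+* mice. This was the largest log2 fold change among the 10 genes, with means of 139.4 ± 8.39 and 100.8 ± 7.23 CPM (SD, n = 3) and a gap between the genotypes wider than the spread within either. The log2 fold change by edgeR was −0.47 (SE 0.0876, 95% interval −0.67 to −0.26, adjusted *P* = 0.452), a level 27.7% lower. It was −0.41 without the third *Ebf2E165X/+* mouse, with an adjusted *P* of 0.302 by edgeR.

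*Bckdhb* encodes the E1β partner of that subunit. It was at 50.7, 51.3, and 47.4 CPM in the *Ebf2+/+* mice and at 44.2, 39.5, and 36.2 CPM in the *Ebf2E165X/+* mice, again without overlap. The log2 fold change was −0.32 (SE 0.0876, 95% interval −0.52 to −0.11, adjusted *P* = 0.783, edgeR), or −0.25 without the third *Ebf2E165X/+* mouse. *Dbt* encodes the E2 core, which carries the lipoyl arm and passes the acyl group to coenzyme A. It was at 115.4, 114.5, and 102.2 CPM in the *Ebf2+/+* mice and at 92.4, 88.1, and 74.5 CPM in the *Ebf2E165X/+* mice. This gave a log2 fold change of −0.38 (SE 0.102, 95% interval −0.62 to −0.14, adjusted *P* = 0.783, edgeR), or −0.29 without that mouse. In each of the 3 subunits the third *Ebf2+/+* mouse was the lowest of its genotype, as was the third *Ebf2E165X/+* mouse of its own. *Dld*, which encodes the E3 subunit shared with the pyruvate and oxoglutarate dehydrogenases, was at 350.4, 315.9, and 265.4 CPM against 219.3, 223.0, and 250.8 CPM. It did not overlap either (log2 fold change −0.43, SE 0.126, adjusted *P* = 0.783, edgeR), but the third *Ebf2E165X/+* mouse was the highest of the genotype, the opposite order to that of the BCKDH subunits.

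The pair that regulates the complex showed no such separation. *Bckdk* encodes the kinase that inactivates BCKDH. It was at 74.1, 67.1, and 64.5 CPM in the *Ebf2+/+* mice and at 55.3, 56.3, and 77.4 CPM in the *Ebf2E165X/+* mice. The first and second *Ebf2E165X/+* mice were below, and the third was above, all *Ebf2+/+* mice. The log2 fold change by edgeR was −0.12 (SE 0.138, 95% interval −0.44 to 0.20, adjusted *P* = 0.806), and −0.30 (adjusted *P* = 0.594, edgeR) without the third mouse, which was also the one with the high share of skeletal muscle markers. The part of those transcripts in its *Bckdk* level was not tested. *Ppm1k* encodes the mitochondrial phosphatase that activates BCKDH. It was at 25.7, 31.4, and 30.0 CPM against 29.4, 24.4, and 26.5 CPM, with overlap and a log2 fold change of −0.12 (SE 0.106, 95% interval −0.36 to 0.13, adjusted *P* = 0.783, edgeR), or −0.11 without the third *Ebf2E165X/+* mouse. The ratio of *Bckdk* to *Ppm1k* was 2.89, 2.14, and 2.15 in the *Ebf2+/+* mice, against 1.88, 2.31, and 2.92 in the *Ebf2E165X/+* mice. The ranges overlapped, and the difference of the mean log2 ratio was −0.022 (two-sided exact permutation test, *P* = 1.0, smallest possible *P* 0.1), with a direction that turned when either the first *Ebf2+/+* or the first *Ebf2E165X/+* mouse was left out.

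**Figure D1:**
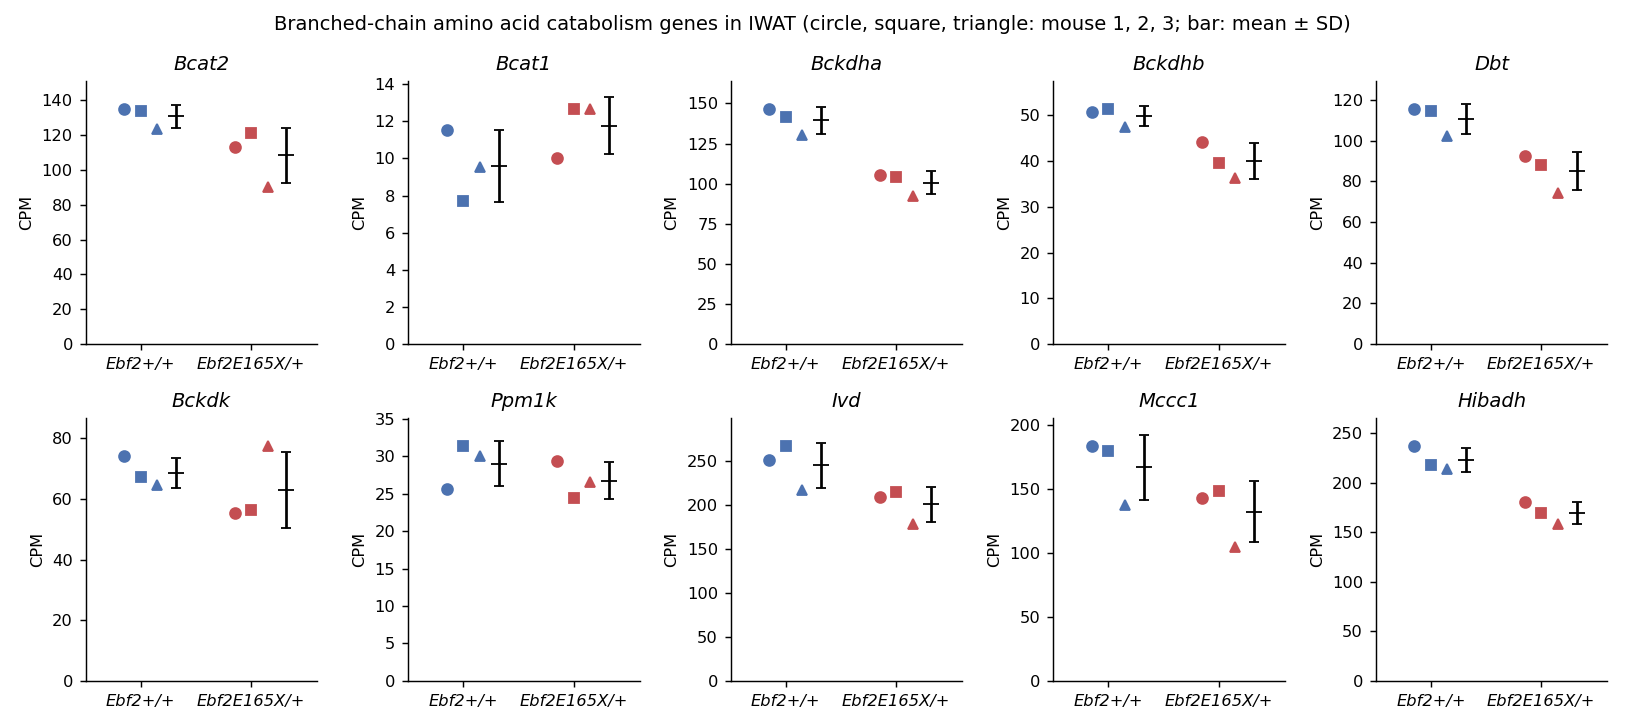
Each panel shows the CPM of 1 of the 10 genes in each of the 6 mice, with *Ebf2+/+* in blue and *Ebf2E165X/+* in red, the mouse number by symbol, and the mean ± SD of 3 mice as a black bar. *Bcat2*, *Bckdha*, *Bckdhb*, *Dbt*, *Ivd*, and *Hibadh* show no overlap between the genotypes, and the *Bckdk* of the third *Ebf2E165X/+* mouse lies at 77.4 CPM above all others.

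Of the 3 enzymes after BCKDH, *Ivd* and *Mccc1* belong to leucine and *Hibadh* to valine. *Ivd* encodes isovaleryl-CoA dehydrogenase, the first enzyme of leucine breakdown after BCKDH. It was at 251.0, 266.6, and 216.1 CPM in the *Ebf2+/+* mice and at 209.2, 214.1, and 177.7 CPM in the *Ebf2E165X/+* mice. The genotypes were separated by a narrow margin, between 214.1 and 216.1 CPM. The log2 fold change was −0.29 (SE 0.118, 95% interval −0.56 to −0.013, adjusted *P* = 0.783, edgeR), or −0.21 without the third *Ebf2E165X/+* mouse. *Mccc1* encodes the biotin-carrying subunit of methylcrotonyl-CoA carboxylase, the next leucine enzyme. It was at 183.3, 179.0, and 137.3 CPM against 142.8, 148.5, and 104.7 CPM. The genotypes overlapped because the third *Ebf2+/+* mouse was below the first and second *Ebf2E165X/+* mice, and the log2 fold change was −0.34 (SE 0.164, 95% interval −0.72 to 0.048, adjusted *P* = 0.783, edgeR), or −0.19 without the third *Ebf2E165X/+* mouse.

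*Hibadh* encodes 3-hydroxyisobutyrate dehydrogenase of valine breakdown. It was at 237.2, 218.4, and 214.2 CPM in the *Ebf2+/+* mice and at 180.3, 169.4, and 158.7 CPM in the *Ebf2E165X/+* mice. The closest values of the genotypes were 180.3 and 214.2 CPM, and the log2 fold change was second in size to that of *Bckdha*, although the difference in CPM was larger. This gave a log2 fold change of −0.40 (SE 0.0901, 95% interval −0.61 to −0.19, adjusted *P* = 0.700, edgeR), and −0.35 without the third *Ebf2E165X/+* mouse.

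By edgeR, 0 of the 10 genes passed an adjusted *P* of 0.05 with a fold change above 1.5, and 0.00918% of all genes did so (3 of 32664). An unadjusted *P* under 0.05 with a lower level was reached by 5 of the 10 (*Bckdha*, *Bckdhb*, *Dbt*, *Ivd*, and *Hibadh*), against 3.09% of all genes, and with a higher level by 0, against 1.68%. The levels were lower without overlap in 6 of the 10, those 5 and *Bcat2*, against 5.75% of all genes and 6.78% of the genes that had 10 or more counts in each library. The median log2 fold change was −0.30 over the 10 genes, with a range from −0.47 to 0.29, and 0.014 over all genes tested. DESeq2, the test named in the study, also called 0 of the 10 at a fold change above 1.5, against 0.302% of all genes, since none of the 10 differed by that much. With no threshold on fold change it passed *Bckdha* (adjusted *P* = 0.000853) and *Hibadh* (adjusted *P* = 0.00445), 2 of 10 against 0.582% of all genes, and 7 of the 10 had an unadjusted *P* under 0.05 with a lower level, against 3.26% of all genes. By limma-voom 0 were called, and 6 were lower with an unadjusted *P* under 0.05, against 3.55%. Without the third *Ebf2E165X/+* mouse, edgeR called 0, gave 5 a lower level with an unadjusted *P* under 0.05, against 3.54% of all genes, and gave a median log2 fold change of −0.23.

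The lower mean of these genes stood beside a lower mean of the adipocyte markers. In bulk tissue, fewer adipocytes and less RNA of a gene per adipocyte cannot be told apart. Relative to the *Ebf2+/+* mean, the mean log2 level of the 10 genes was −0.20, −0.20, and −0.33 in the *Ebf2E165X/+* mice, a mean difference of −0.24. The 7 adipocyte markers were at −0.18, −0.21, and −0.64, a mean difference of −0.34, or −0.19 without the third *Ebf2E165X/+* mouse. By edgeR, however, 0 of the 7 had an unadjusted *P* under 0.05. *Adipoq*, an adipokine restricted to adipocytes, was at 1190, 1303, and 1199 CPM against 1172, 1054, and 819.8 CPM. When the mean of the adipocyte markers was subtracted within each library, a step chosen after the data were seen, the 10 genes stood at −0.022, 0.0029, and 0.31 in the *Ebf2E165X/+* mice, and the mean difference turned to 0.096, or to −0.0094 without the third mouse. On that scale, with all 3 *Ebf2E165X/+* mice, 6 of the 10 genes had a higher and 4 a lower mean in that genotype. This tally depended on the third *Ebf2E165X/+* mouse. *Bcat2* (0.058), *Bckdhb* (0.018), *Bckdk* (0.20), *Ppm1k* (0.22), and *Ivd* (0.052) turned, *Mccc1* was at −0.0014, and *Dbt* (−0.046), *Hibadh* (−0.059), and *Bckdha* (−0.13) were lower. Without the third *Ebf2E165X/+* mouse, *Bckdhb* (−0.062), *Bckdk* (−0.10), and *Ivd* (−0.012) were lower again, and *Mccc1* was at 0.0095. *Bcat2* (0.035), *Ppm1k* (0.080), and *Bcat1* (0.44) were still higher, and *Dbt* (−0.10), *Hibadh* (−0.16), and *Bckdha* (−0.22) still lower. *Bckdha* stood at −0.22, −0.21, and 0.044 and *Hibadh* at −0.13, −0.19, and 0.14, against −0.023 to 0.022 and −0.080 to 0.062 in the *Ebf2+/+* mice. The first and second *Ebf2E165X/+* mice were thus below all *Ebf2+/+* mice for both genes, and the third was above all of them. *Bcat1* stood at 0.26, 0.62, and 1.05, above the *Ebf2+/+* range of −0.35 to 0.22 in all 3 mice. In CPM its genotypes overlapped, and the subtraction raises every gene in the *Ebf2E165X/+* mice by as much as their markers were lower. The separation of *Bcat1* therefore belongs to this scale. The part of adipocytes in its level was not tested.

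Markers of other cells are given beside these values. The 8 thermogenic adipocyte markers, of which *Cidea* was the most abundant in the *Ebf2+/+* mice and *Cox8b* in the *Ebf2E165X/+* mice, summed to 165.7, 220.6, and 214.5 CPM in the *Ebf2+/+* mice and to 41.0, 46.4, and 89.2 CPM in the *Ebf2E165X/+* mice. Of these, 5 of 8 had a lower level with an unadjusted *P* under 0.05 by edgeR, and *Cidea* fell from 82.4, 102.5, and 105.8 CPM to 7.97, 9.61, and 13.2 CPM (log2 fold change −3.24, adjusted *P* = 0.00462, edgeR). Transcripts of the mitochondrial genome took 8.24%, 9.63%, and 8.11% of the counts against 7.14%, 6.14%, and 6.87%, without overlap. For the other lists, the leading gene is that of the highest mean CPM over the 6 mice. Progenitor markers, led by *Dcn*, took 0.161%, 0.133%, and 0.169% against 0.169%, 0.188%, and 0.176%. Macrophage markers, led by *Lyz2*, took 0.126% to 0.163% against 0.163% to 0.170%, and endothelial markers, led by *Pecam1*, took 0.106% to 0.109% against 0.0772% to 0.11%. Lymphocyte (0.0259% to 0.0508%, led by *Ms4a1*), epithelial (0.000165% to 0.00668%, led by *Krt5*), and erythroid markers (0.190% to 0.475%, led by *Hbb-bs*) overlapped between the genotypes, and no marker of any list was at 0 in a library. The part of any of these cells in the levels of the BCAA genes was not tested.

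**Figure D2:**
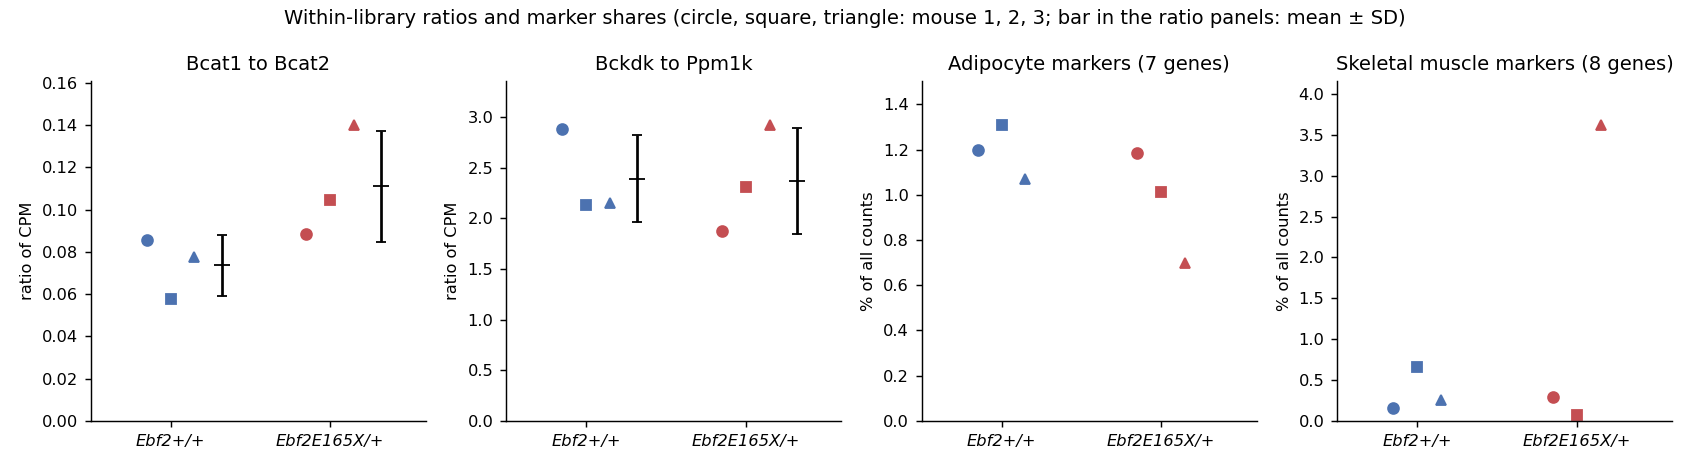
The panels show, for each mouse, the ratio of CPM of *Bcat1* to *Bcat2* and of *Bckdk* to *Ppm1k* (black bars, mean ± SD of 3 mice) and the percentage of all counts in 7 adipocyte and 8 skeletal muscle markers. The *Bcat1* to *Bcat2* ratio is above 0.0857 in all *Ebf2E165X/+* mice and at or below it in all *Ebf2+/+* mice, and the third *Ebf2E165X/+* mouse stands apart with 3.62% of its counts in muscle markers.

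The other genes of the pathway were examined with 32 genes for carriers, enzymes, cofactor attachment, and a regulator. By edgeR 0 of 32 were called, and 26 had a lower mean, 15 of these with an unadjusted *P* under 0.05, against 3.09% of all genes. With a higher level, 1 (*Slc7a7*) had an unadjusted *P* under 0.05, against 1.68% of all genes. The levels did not overlap in 16 that were lower, against 5.75% of all genes, and in 3 that were higher, against 5.09%. The median log2 fold change of the 32 genes was −0.24. Without the third *Ebf2E165X/+* mouse, 12 of the 32 were lower with an unadjusted *P* under 0.05, against 3.54% of all genes, and the median was −0.18. DESeq2 called 0 of 32, against 0.302% of all genes. Without a threshold on fold change, 7 passed its adjusted *P*, against 0.582% of all genes. These were 6 mitochondrial enzymes, which were lower, and the carrier *Slc7a7*, which was higher. All 18 mitochondrial enzymes among the 32 genes had a lower mean in the *Ebf2E165X/+* mice. By edgeR, 14 of the 18 had an unadjusted *P* under 0.05, or 12 without the third *Ebf2E165X/+* mouse, while the carriers lay in both directions. Among the 18, *Abat*, a mitochondrial transaminase, had a log2 fold change of −0.021 that turned to 0.034 or 0.017 without the first or the second *Ebf2E165X/+* mouse, and it was named after its values were seen. *Bckdha*, *Echs1*, *Hsd17b10*, *Hibch*, and *Aldh6a1* are shown in the study's own heatmaps of these samples, so that their direction is not independent evidence.

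Of the 8 carriers of the plasma membrane, 0 were lower and 1 was higher with an unadjusted *P* under 0.05. *Slc7a7*, a light chain of the y+L exchanger for cationic and neutral amino acids, was at 11.3, 11.8, and 12.8 CPM in the *Ebf2+/+* mice and at 17.4, 16.8, and 16.2 CPM in the *Ebf2E165X/+* mice. All *Ebf2E165X/+* mice were above all *Ebf2+/+* mice, with a log2 fold change of 0.49 (SE 0.0935, adjusted *P* = 0.474, edgeR), and DESeq2 gave it an adjusted *P* of 0.000713. *Slc7a5*, the light chain of the leucine carrier LAT1, was at 13.6, 11.5, and 13.9 CPM against 15.8, 15.2, and 15.1 CPM, also without overlap (log2 fold change 0.24, adjusted *P* = 0.783, edgeR). *Slc6a19*, a carrier of neutral amino acids, was at 0.937 to 1.39 CPM in all mice and overlapped. In mitochondria, *Slc25a44*, the BCAA carrier of thermogenic fat, was at 89.8, 63.2, and 71.4 CPM against 64.4, 62.8, and 59.6 CPM. Its genotypes overlapped, and the log2 fold change was −0.26 (SE 0.127, adjusted *P* = 0.783, edgeR), or −0.13 without the first *Ebf2+/+* mouse. *Slc25a29*, a carrier of basic amino acids, was low, at 3.81 to 3.95 CPM against 4.24 to 5.15 CPM. *Klf15*, a transcription factor that regulates BCAA genes in other tissues, had a log2 fold change of 0.045 (SE 0.112) with overlap.

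Genes of the leucine branch after *Ivd* also had lower means in the *Ebf2E165X/+* mice. *Mccc2*, the partner of *Mccc1*, was at 73.8, 83.8, and 67.9 CPM against 60.1, 66.2, and 54.9 CPM, without overlap (log2 fold change −0.31, SE 0.105, adjusted *P* = 0.783, edgeR). *Auh*, a hydratase of the branch, had a log2 fold change of −0.18 (SE 0.0644) and was lower in every *Ebf2E165X/+* mouse. In the branches of isoleucine and valine, 5 of 8 genes were lower with an unadjusted *P* under 0.05, with and without the third *Ebf2E165X/+* mouse. *Hibch*, the hydrolase just before *Hibadh*, was at 150.8, 152.0, and 146.8 CPM in the *Ebf2+/+* mice and at 117.8, 99.1, and 95.9 CPM in the *Ebf2E165X/+* mice. The gap between the genotypes was wider than the spread within either, and the log2 fold change was −0.52 (SE 0.0959, adjusted *P* = 0.411, edgeR). *Aldh6a1*, the dehydrogenase after *Hibadh*, was at 577.6, 614.2, and 584.1 CPM against 493.9, 444.7, and 398.0 CPM (log2 fold change −0.41, SE 0.119, adjusted *P* = 0.783, edgeR). The hydratase *Echs1* (−0.52, adjusted *P* = 0.625, edgeR) and the dehydrogenase *Hsd17b10* (−0.35, adjusted *P* = 0.738, edgeR), which also act on other acyl-CoA substrates, were lower without overlap.

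Propionyl-CoA is the end product shared by isoleucine and valine. Of 6 genes for its conversion to succinyl-CoA, 5 were lower with an unadjusted *P* under 0.05, with a median log2 fold change of −0.34, or −0.35 without that mouse. *Pccb*, a subunit of propionyl-CoA carboxylase, was at 219.9, 195.4, and 180.0 CPM against 151.8, 154.5, and 128.9 CPM (log2 fold change −0.45, SE 0.112, adjusted *P* = 0.783, edgeR). *Mmaa*, a chaperone of the vitamin B12-dependent mutase, was at 18.9, 17.9, and 17.9 CPM against 13.8, 14.8, and 14.5 CPM. *Mcee*, the epimerase, was at 20.6, 19.5, and 17.5 CPM against 14.9, 14.04, and 16.6 CPM. The genotypes were separate for these 3 genes and for 4 of the 6 in all. For the lipoyl group that the E2 core needs, *Lipt1* had a log2 fold change of −0.41 (SE 0.167), *Lias* of −0.17 (SE 0.0768), and *Lipt2* of −0.026 (SE 0.166), and 1 of the 3 had an unadjusted *P* under 0.05, a count of 2 without the third *Ebf2+/+* mouse and of 0 with any other mouse left out.

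**Figure D3:**
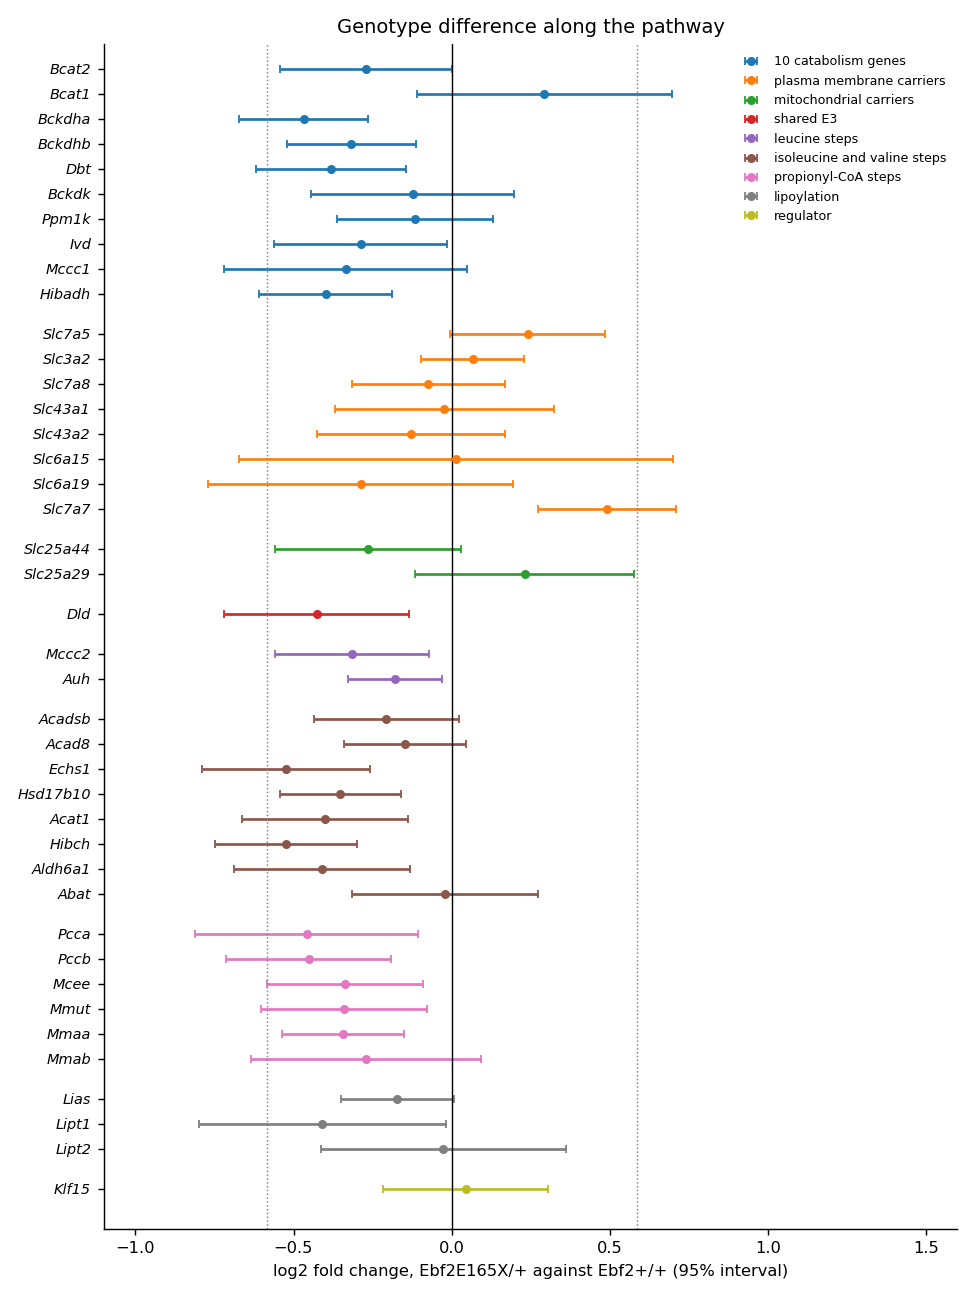
Points are log2 fold changes of *Ebf2E165X/+* against *Ebf2+/+* by edgeR with 95% intervals, for the 10 catabolism genes and other genes of the pathway, and the dotted lines mark a fold change of 1.5. Mitochondrial enzymes lie left of 0, from −0.02 to −0.52, whereas carriers lie on both sides, with *Slc7a7* at 0.49.

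Lower means were also found in related mitochondrial pathways. All 6 subunits of the related pyruvate and oxoglutarate dehydrogenases had a lower mean, with a median log2 fold change of −0.43. Of these, 4 had an unadjusted *P* under 0.05, against 3.09% of all genes, and 5 were without overlap, against 5.75%. The count with an unadjusted *P* under 0.05 was 1 and 2 without the first and the second *Ebf2E165X/+* mouse, and 6 without the third *Ebf2E165X/+* or the third *Ebf2+/+* mouse. *Dlst*, the E2 core of oxoglutarate dehydrogenase, was at 326.4, 302.6, and 282.5 CPM against 215.3, 208.8, and 252.4 CPM. *Dlat* (−0.53, SE 0.177) and *Pdhx* (−0.42, SE 0.147), of pyruvate dehydrogenase, were also lower without overlap, and were at −0.32 and −0.25 without the first *Ebf2+/+* mouse, which was the highest for both. Of the 7 kinases and phosphatases of pyruvate dehydrogenase, 3 were lower with an unadjusted *P* under 0.05 (3.09% of all genes). Of these, 1 was without overlap (5.75% of all genes), and the median of the 7 was −0.099. Without the third *Ebf2E165X/+* mouse, 5 were lower with an unadjusted *P* under 0.05 (3.54% of all genes). The same number were lower without overlap (3434 of all 32108 genes), and the median was −0.33. Without the first *Ebf2E165X/+* mouse, 1 was lower with an unadjusted *P* under 0.05 (1064 of all 32173 genes). Likewise 1 was lower without overlap (3367 of all 32173 genes), and the median was −0.032. With another mouse left out, 1 or 2 of the 7 had an unadjusted *P* under 0.05 with a lower level, and the median ran from −0.18 to −0.050. *Pdp2*, a phosphatase and thus the counterpart of *Ppm1k*, was at 33.6, 32.1, and 34.6 CPM against 24.8, 25.4, and 23.0 CPM (log2 fold change −0.46, SE 0.0741, adjusted *P* = 0.376, edgeR). The kinases *Pdk4* (−1.17, SE 0.493) and *Pdk1* (−0.28, SE 0.119) had larger standard errors, and both overlapped. Without the third *Ebf2+/+* mouse *Pdk4* was at −0.73, and without the first *Ebf2+/+* mouse *Pdk1* was at −0.16.

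In fatty acid beta-oxidation, all 12 genes were lower without overlap (5.75% of all genes) and with an unadjusted *P* under 0.05 (3.09% of all genes). Their median log2 fold change was −0.64. On leaving out any 1 mouse, 11 or 12 had an unadjusted *P* under 0.05, and the median was −0.61 without the third *Ebf2E165X/+* mouse. *Acaa2* (−0.97, SE 0.112, adjusted *P* = 0.119, edgeR), *Hadhb* (−0.79, SE 0.0960, adjusted *P* = 0.135, edgeR), and *Eci1* (−0.74, SE 0.0839, adjusted *P* = 0.119, edgeR) had the smallest *P* values. DESeq2 called 7 of the 12, against 0.302% of all genes. All 14 genes of the citric acid cycle had a lower mean, 10 with an unadjusted *P* under 0.05 and 7 without overlap, with a median of −0.42. Without the third *Ebf2E165X/+* mouse, 13 had an unadjusted *P* under 0.05, all 14 were without overlap, and the median was −0.54. Over all genes, 1878 of 32664 were lower without overlap, and 3434 of 32108 without that mouse. Without the third *Ebf2+/+* mouse, 11 of the 14 were without overlap, against 3852 of all 32133 genes. The count with an unadjusted *P* under 0.05 was 5 without the first or the second *Ebf2E165X/+* mouse and 6 without the first or the second *Ebf2+/+* mouse. Among them *Sdha*, a subunit of succinate dehydrogenase, had a log2 fold change of −0.50, and *Idh3b*, a subunit of isocitrate dehydrogenase, of −0.49. The lists also differed in how the mice were ordered. In the third *Ebf2E165X/+* mouse, the mean log2 level relative to *Ebf2+/+* was −0.54 for the BCKDH subunits, against −0.28 and −0.36 in the first and second mice. It was −0.17 for the citric acid cycle, against −0.54 and −0.61, and −0.28 for the pyruvate and oxoglutarate dehydrogenases, against −0.52 and −0.51. Relative to the adipocyte markers, the mean difference was −0.053 for the BCKDH subunits, −0.29 for beta-oxidation, and −0.10 for the citric acid cycle. The third *Ebf2E165X/+* mouse was the highest of all mice on this scale for the BCKDH subunits (0.096) and the citric acid cycle (0.47). For beta-oxidation it was at −0.021, the highest of its genotype, against −0.020 to 0.034 in the *Ebf2+/+* mice. Without it the differences were −0.13 for the BCKDH subunits, −0.42 for beta-oxidation, and −0.39 for the citric acid cycle. For the pyruvate and oxoglutarate dehydrogenases the difference was −0.10, or −0.33 without that mouse.

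**Figure D4:**
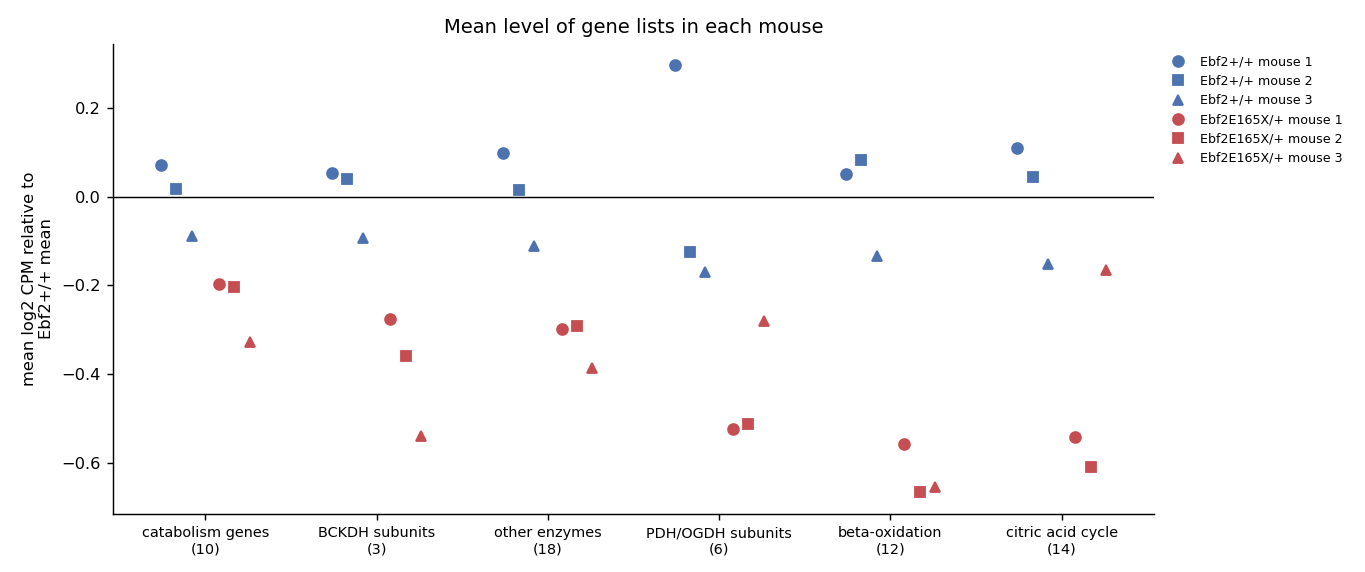
Points are the mean log2 CPM of each gene list in each mouse relative to the *Ebf2+/+* mean, for the 10 catabolism genes, the 3 BCKDH subunits, 18 other mitochondrial enzymes of the pathway, and 3 comparison lists (numbers of genes in brackets). The third *Ebf2E165X/+* mouse is lowest of its genotype for the first 3 lists and highest for the pyruvate and oxoglutarate dehydrogenases (PDH/OGDH) and the citric acid cycle.

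The levels of the 10 genes relative to each other were given per kilobase of exon. The length was that of all annotated exons of a gene together, so the order also depends on the annotation. It was 1899 bases for *Bckdha*, 5505 for *Ivd*, 10179 for *Hibadh*, and 10952 for *Mccc1*. Before division by length, *Ivd* (244.6 CPM), *Hibadh* (223.2 CPM), and *Mccc1* (166.5 CPM) had higher *Ebf2+/+* means than *Bckdha* (139.4 CPM). *Bckdha* had the highest level in the *Ebf2+/+* mice, at 73.4 ± 4.42 CPM per kb (SD, n = 3), followed by *Ivd* at 44.4 ± 4.70, *Bcat2* at 33.5 ± 1.65, *Dbt* at 33.1 ± 2.21, and *Bckdhb* at 27.6 ± 1.17 CPM per kb. *Hibadh* was at 21.9 ± 1.202, *Bckdk* at 18.6 ± 1.35, and *Mccc1* at 15.2 ± 2.32 CPM per kb. *Ppm1k* at 4.82 ± 0.493 and *Bcat1* at 1.03 ± 0.206 CPM per kb were the lowest. Only the ranges of *Bcat2* (31.6 to 34.6) and *Dbt* (30.5 to 34.5) overlapped between neighbours in this order. The cytosolic aminotransferase was thus far below the mitochondrial one on this scale. The sources differ on whether the libraries were 3′ tags, for which a division by length would not apply. The order between genes thus depends on the library type too, whereas the comparison of genotypes does not use length.

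*Bckdha* lies on chromosome 7 at 25629946 to 25658981 of GRCm38 on the minus strand. It overlaps *B3gnt8* on the opposite strand by 5155 bases, and *B3gnt8* had at most 913 counts in a library where *Bckdha* had at least 11842. *Mccc1* overlaps *Gm43080* and *Mccc1os*, with at most 283 and 199 counts. Whether strand was used in counting is not given in the sources used here, so reads in these overlaps cannot be assigned with certainty. The other genes overlapped annotated genes with at most 57 counts.

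Genes outside these lists whose level ran closest to the mean of the 10 genes over the 6 libraries were *Lmf1*, a maturation factor of lipases, *Nelfe*, a subunit of the negative elongation factor, *Iars2*, the mitochondrial isoleucyl-tRNA synthetase, *Lap3*, an aminopeptidase, and *Mcur1*, a regulator of mitochondrial calcium uptake. The root mean square difference of the centred log2 CPM was 0.022 for *Lmf1*, 0.027 for *Nelfe*, 0.028 for *Iars2*, 0.031 for *Lap3*, and 0.031 for *Mcur1*. Their log2 fold changes ran from −0.26 to −0.20. This is a ranking of 18905 genes by likeness and no test.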

How the data were processed

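RNA from IWAT of 3 *Ebf2+/+* and 3 *Ebf2E165X/+* mice was sequenced by the authors. Per the labels, they used cutadapt 4.8, STAR 2.7.8a, and RSEM 1.3.3 with GRCm38, a kit from NEB, and FastQC 0.11.8 and MultiQC 1.20, whereas the study's methods describe 3′ tag libraries. The deposited expected counts were whole in all 332946 values and were not scaled. Groups were taken from the labels. Nothing beyond the mouse numbers in the labels links libraries to litters or days.

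Genes that had 1 or more counts in some library were normalized by TMM and compared with edgeR 4.0.16 in R 4.3.3 (glmQLFit and glmQLFTest, genotype as the only term), with Benjamini-Hochberg adjustment over 32664 genes. A call required an adjusted *P* under 0.05 and a fold change above 1.5. edgeR took the place of DESeq2 1.42.0, which was an alternative, as were limma-voom (limma 3.58.1), DESeq2's size factors, removal of the genes of the mitochondrial genome, a minimum of 10 counts in each library, filterByExpr, a replicate block, and removal of each mouse in turn. The scale relative to adipocyte markers was added after the data were seen. Levels on the log2 scale used a prior count of 2. The test was tried on simulated data. The members and lists were chosen with earlier results of these data known.

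Exact permutation tests of the ratios, two-sided, ran over 10 splits (scipy 1.17.1, numpy 2.4.6, pandas 2.3.3, matplotlib 3.10.9). Lengths and overlaps came from GENCODE M21, and promoters from RefSeq. Named genes were all 10 members, up to 3 genes of each list with the smallest *P*, *Slc25a44*, *Dld*, *Klf15*, *Ebf2*, and pathway genes in the study's heatmaps, and the 5 genes closest in profile. Some genes that this rule names are not reported here. *Adipoq* and *Cidea* were named after their values were seen. Other deposited results of the study were not used here.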

Additional observations from a re-analysis of the deposited data

How the results depend on the processing

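All 10 catabolism genes kept their direction under every alternative run by edgeR, DESeq2, and limma-voom and with each mouse left out. The median log2 fold change of the 10 genes ran from −0.38, without the third *Ebf2+/+* mouse, to −0.23, without the third *Ebf2E165X/+* mouse. The number lower with an unadjusted *P* under 0.05 ran from 4 to 7 with a mouse left out and from 5 to 7 otherwise. The mean log2 difference of the 10 genes was −0.24, and turned to 0.096 relative to the adipocyte markers, which subtracts their own difference of −0.34. Without the third *Ebf2E165X/+* mouse, the difference relative to the markers was −0.0094, and that of the markers themselves was −0.19. The log2 ratio of *Bckdk* to *Ppm1k* ran from −0.18 to 0.13 with a mouse left out, turning to 0.12 without the first *Ebf2+/+* and to 0.13 without the first *Ebf2E165X/+* mouse, and the ratio of *Bcat1* to *Bcat2* ran from 0.41 to 0.74. The cause of the turn was not tested. Over all genes, edgeR called 3, DESeq2 98, and DESeq2 without independent filtering 92, and with a mouse left out edgeR called 1 to 11. Of the genes outside the 10, 6 with a log2 fold change within 0.05 of 0 turned under some alternative, namely *Abat*, *Slc43a1*, *Slc6a15*, and *Pdk2*, all named after their values were seen, and *Lipt2* and *Klf15*. *Lipt2* ran from −0.15 to 0.068 with a mouse left out (above 0 without the first *Ebf2+/+* mouse) and *Klf15* from −0.052 to 0.13 (−0.029 without the third *Ebf2+/+* and −0.052 without the first *Ebf2E165X/+* mouse). Without the third *Ebf2E165X/+* mouse, *Slc25a29* was at 0.13, and without the second *Ebf2+/+* mouse *Slc7a5* was at 0.15. *Bckdk* ran from −0.30 to −0.037 and *Ppm1k* from −0.21 to −0.054 with a mouse left out. With a replicate block, 0 of the 10 genes were called, 7 were lower with an unadjusted *P* under 0.05 (2.53% of all genes), and the median was −0.30. Mice of the same number showed no common direction of deviation (*r* of deviations across 18905 genes, 0.153, −0.278, and −0.162). These values cannot exclude a pairing by number. Each deviation is from a mean of 3 mice, and the third *Ebf2E165X/+* mouse had the high share of muscle markers. The number of mice, 3 per genotype, limits all of these values, and for genes of few counts such as *Slc6a15* (21 to 33 counts per library) the counting error does so too.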
